A study of Homo sapiens and Mus musculus with 12 samples.

Results

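Tubulin genes encode the building blocks of microtubules, and 10 of them were followed here: the alpha-tubulin genes TUBA1A, TUBA1B and TUBA1C, the beta-tubulin genes TUBB, TUBB2A, TUBB2B, TUBB3, TUBB4B and TUBB6, and the gamma-tubulin gene TUBG1. They were matched by symbol and make up 10 of the 16782 genes in the A375 table and 10 of the 12711 in the Yumm1.7 table, where the mouse counterpart of TUBB is called Tubb5. The libraries came from polysome profiling, which separates mRNAs on a sucrose gradient by how many ribosomes they carry. A375 is a human and Yumm1.7 a mouse melanoma cell line, each a single line, and the study set out to compare their parental cells with drug-tolerant persister cells, the survivors of a drug treatment. Its 2 states per line are labelled P and S. The labels do not say which letter is the persister state and name no drug, dose or time, so every difference below is simply S relative to P. For each state of each line there was 1 input library (RNA before the gradient), 1 polysome library (mRNAs under many ribosomes, from the bottom of the gradient) and 1 monosome library (the peak of single ribosomes together with lighter material), which makes 12 libraries.

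With 1 library per group there is no replicate check. No test was possible, no spread can be given, and a difference between libraries may come from the library as well as from the cells. Values are TPM, a length-corrected share of each library's reads, so levels can be compared between genes, but a value also moves with everything else in its library.

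Microtubules are polymers of heterodimers of alpha- and beta-tubulin, so cells need both partners in matching amounts, whereas gamma-tubulin sits in ring complexes that start new microtubules. Vertebrates express several alpha and beta isotypes from separate genes, and some are typical of neurons (TUBB3, and TUBA1A during development) while others are widely expressed (TUBA1B, TUBB, TUBB4B). Tubulin mRNA is under a well-known feedback called autoregulation: when free tubulin dimers are in excess, the factor TTC5 recognises the first residues of a nascent alpha- or beta-tubulin chain on the ribosome, and the mRNA is degraded while it is being translated, through SCAPER and the CCR4-NOT deadenylase.

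Because TTC5 reads the start of the nascent chain, the first 30 coding bases of the human genes other than TUBB6 are shown, from GENCODE release 29 on GRCh38, 5′ to 3′ on the coding strand. Capitals mark the first 4 codons, the stretch that autoregulation depends on in alpha- and beta-tubulin.
TUBA1A: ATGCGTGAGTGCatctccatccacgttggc
TUBA1B: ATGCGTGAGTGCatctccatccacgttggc
TUBA1C: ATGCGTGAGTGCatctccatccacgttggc
TUBB: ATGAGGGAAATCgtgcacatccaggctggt
TUBB2A: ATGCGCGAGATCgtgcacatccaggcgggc
TUBB2B: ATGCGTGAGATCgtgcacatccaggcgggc
TUBB3: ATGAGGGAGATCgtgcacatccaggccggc
TUBB4B: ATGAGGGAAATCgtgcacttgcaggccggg
TUBG1: ATGCCGAGGGAAatcatcaccctacagttg
The 3 alpha-tubulin starts were identical over all 30 bases. The 6 beta-tubulin starts, TUBB6 included, were all distinct over 30 bases and fell into 4 distinct versions over the first 4 codons. These 4 versions differ only in synonymous codons and all encode Met-Arg-Glu-Ile, so the residues at the start of the chain are the same.

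The 3 alpha-tubulin genes lie together on chromosome 12 of GRCh38, TUBA1A at chr12:49184796-49189324 and TUBA1B at chr12:49127782-49131397 on the minus strand and TUBA1C at chr12:49188736-49274603 on the plus strand. TUBB2A (chr6:3153669-3157526) and TUBB2B (chr6:3224261-3231730) are neighbours on the minus strand of chromosome 6. The other genes are on plus strands, TUBB at chr6:30720201-30725426, TUBB3 at chr16:89921392-89938761, TUBB4B at chr9:137241213-137243707, TUBB6 at chr18:12307669-12344320 and TUBG1 at chr17:42609676-42615234.

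Several of these genes are close copies, which bears on how reads can be divided among them. Coding sequences were 97.2% identical between TUBA1A and TUBA1B, 96.8% between TUBA1B and TUBA1C and 98.1% between TUBB2A and TUBB2B. Of all 100-base windows of the TUBA1B coding sequence, 38.98% occurred unchanged in another of the 10 genes, against 26.41% for TUBA1A, 26.7% for TUBA1C and 65.7% for TUBB2A. The beta-tubulin genes TUBB and TUBB6 and the gamma-tubulin gene TUBG1 shared no such window with another of the 10. How multi-mapping reads were assigned is not given in the sources used here, so the split between TUBB2A and TUBB2B is uncertain, and the split among the alpha-tubulin genes is less certain than that of the other beta-tubulin genes.

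The libraries differed in ways that touch every value. Genes listed in the tables carried 66.6% to 90.1% of all TPM in the A375 libraries and 84.5% to 94.4% in the Yumm1.7 libraries. Transcripts of the mitochondrial genome took 2.23% to 35.0% of all TPM in A375 and 1.90% to 21.5% in Yumm1.7. In the polysome libraries they took 2.23% in P and 9.15% in S of A375, and 1.90% in P and 19.4% in S of Yumm1.7. Among melanocyte lineage markers, SOX10 stood at 156 and 217 TPM in the P and S input of A375, S100B at 332 and 314 TPM, MITF at 66.6 and 43.0 TPM, PMEL at 6.49 and 39.5 TPM and DCT at 25.2 and 249 TPM, the last pair being at least 2-fold higher in S. For Yumm1.7, MITF was listed at 4.76 and 0.571 TPM in P and S input, PMEL at 0.276 and 0 TPM, MLANA at 0.0540 and 0 TPM, and S100B at 0 in both, so the melanocyte label had little marker support there. The fibroblast and mural markers of Yumm1.7 summed to 24.5 TPM in P input and 866 TPM in S input, to 12.7 and 1145 TPM in monosomes and to 38.7 and 1558 TPM in polysomes, led by the smooth muscle actin gene ACTA2. All 6 tested genes of that list were higher in S input, against 23.1% of all tested genes. Myh11 of that list was listed at 0 in both input libraries. The part of these shifts in the tubulin results was not tested.

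In view of these shifts, differences are given as log2(TPM + 1) in one library minus that in the other, relative to the median gene, over the 12638 genes of A375 and 10492 genes of Yumm1.7 that averaged 1 TPM or more. All 10 tubulin genes passed that filter in both lines. This quantity is called the log2 difference below, and genes at least 2-fold from the median gene are counted as higher or lower. The median gene itself moved on the deposited scale by -0.20 in A375 input and by -0.94 in Yumm1.7 input, by 0.04 and -0.21 in monosomes, and by -0.21 and -1.53 in polysomes, always S minus P. Since bulk RNA was sequenced, fewer cells of a type and less RNA per cell cannot be told apart.

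**Figure D1:**
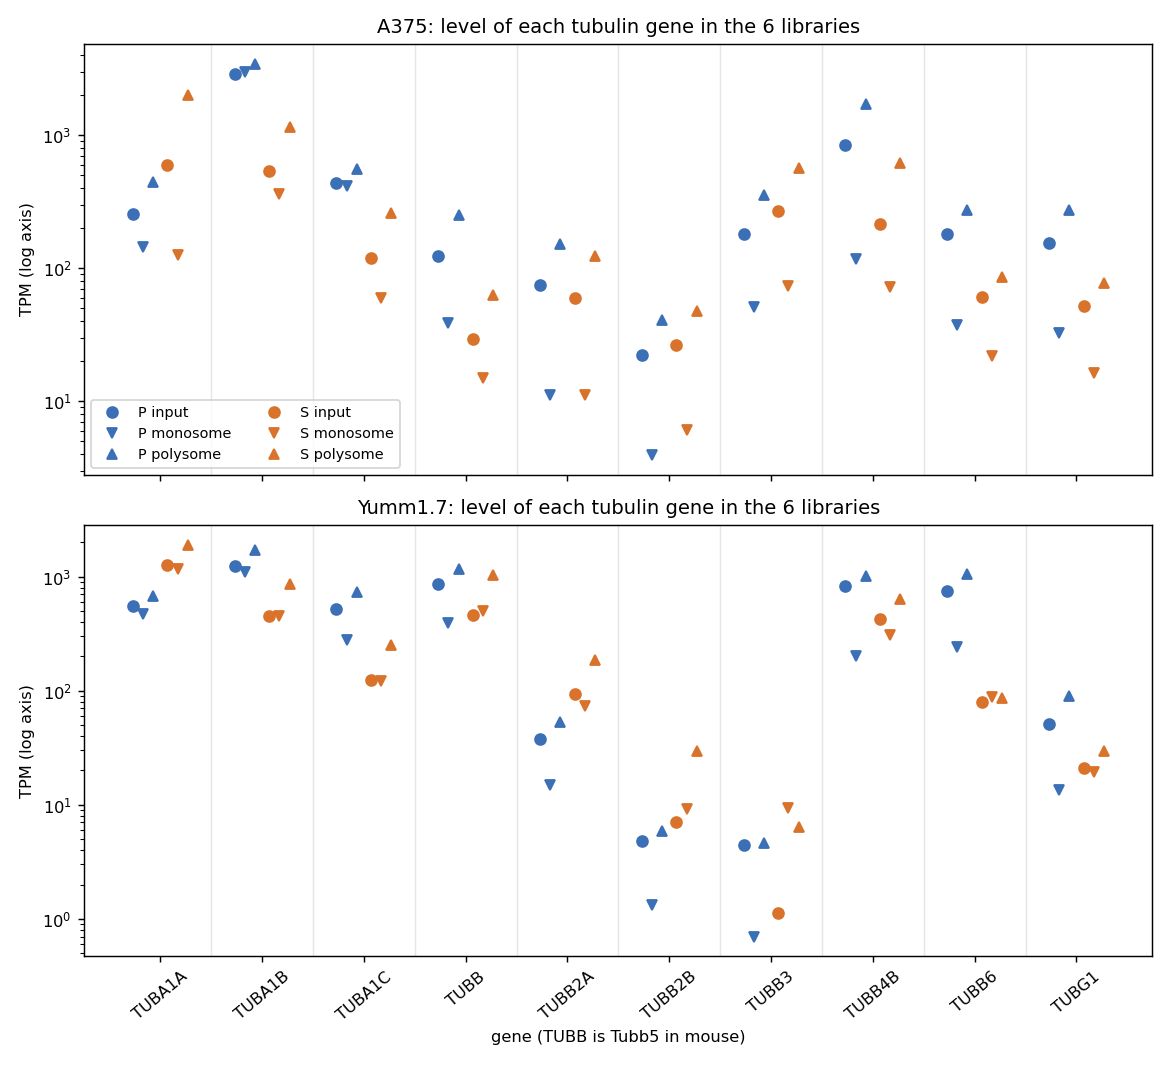
Level of each tubulin gene (TPM, log axis) in the 6 libraries of A375 and of Yumm1.7, 1 point per library. TUBA1B is the highest gene in every P library, and TUBA1A the highest in every S library except the A375 monosome library.

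The alpha-tubulin genes exchanged rank between the states in both lines: the TPM of TUBA1A was higher in S, save in A375 monosomes, and that of TUBA1B and TUBA1C was lower in all 3 kinds of library. TUBA1A, the alpha-tubulin of developing neurons, stood at 257 TPM in the input, 145 TPM in the monosome and 445 TPM in the polysome library of A375 P, and at 601, 125 and 1995 TPM in A375 S. Its log2 difference was 1.42 in input, -0.26 in monosomes and 2.37 in polysomes, where 97.5% of tested genes had a lower one. In Yumm1.7, Tuba1a was listed at 557, 466 and 671 TPM in P and at 1253, 1162 and 1893 TPM in S. The log2 differences of Tuba1a were 2.10, 1.53 and 3.03 in input, monosomes and polysomes, and on the deposited scale they were 1.17, 1.32 and 1.5.

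TUBA1B, the main alpha-tubulin of dividing cells, went the other way. It stood at 2886, 2997 and 3462 TPM in input, monosomes and polysomes of A375 P and at 540, 362 and 1150 TPM in S. TUBA1B thus had a log2 difference of -2.22 in input, -3.08 in monosomes and -1.38 in polysomes. In monosomes 0.475% of tested genes lay below it, and its TPM was 8.27-fold lower in S. In Yumm1.7, Tuba1b stood at 1236, 1088 and 1696 TPM in P and 447, 448 and 856 TPM in S. Relative to the median gene this was -0.53 in input, -1.07 in monosomes and 0.55 in polysomes, while the deposited scale gave -1.47, -1.28 and -0.99, so the direction for Tuba1b in Yumm1.7 polysomes depends on the scaling.

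TUBA1C, also widely expressed, ran the same way as TUBA1B. Its levels were 437, 418 and 554 TPM in A375 P and 119, 59.6 and 260 TPM in S, and 521, 280 and 727 TPM in Yumm1.7 P and 123, 122 and 252 TPM in S. The log2 differences of TUBA1C in A375 were -1.67 in input, -2.83 in monosomes and -0.88 in polysomes. Those of Tuba1c were -1.14, -0.98 and 0.01, the last being -1.52 on the deposited scale.

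As a share of the summed alpha-tubulin TPM, TUBA1A made up 7.19% of A375 P input and 47.7% of A375 S input, and 9.98% and 58.6% in polysomes. The matching shares of Tuba1a in Yumm1.7 were 24.1% and 68.8% in input and 21.7% and 63.1% in polysomes. TUBA1B made up 80.6% of the alpha-tubulin sum of A375 P input and 42.9% of that of S input, and Tuba1b made up 53.4% and 24.5% in Yumm1.7. These shares compare genes within a library and do not depend on the scaling between libraries.

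In A375 the reading of TUBA1B and TUBA1C has a limit in the annotation. The antisense gene TUBA1B-AS1 (ENSG00000258017) lies on the opposite strand across all 3616 bases of TUBA1B. The strand setting of the counting is not given, so reads from the 2 genes may not have been kept apart. TUBA1B-AS1 was listed at 455, 699 and 695 TPM in the input, monosome and polysome library of P and at 42.7, 8.24 and 210 TPM in S, which is the same direction as TUBA1B. TUBA1A and TUBA1C overlap by 589 bases on opposite strands. Annotated antisense genes also lie on the strand opposite TUBA1C, overlapping it by 31967 and 8151 bases.

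The beta-tubulin genes split into those lower in S in A375 and those near the median gene. TUBB4B, the most abundant beta-tubulin of A375 P, stood at 851, 116 and 1711 TPM in input, monosomes and polysomes of P and at 213, 72.4 and 615 TPM in S. Its log2 difference was -1.79 in input, -0.72 in monosomes and -1.27 in polysomes. In Yumm1.7, Tubb4b stood at 830, 201 and 1005 TPM in P and 427, 309 and 635 TPM in S. Relative to the median gene it was at -0.02 in input, 0.83 in monosomes and 0.87 in polysomes, and on the deposited scale at -0.96, 0.62 and -0.66, so its direction in polysomes depends on the scaling.

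TUBB, the class I beta-tubulin found in nearly all cells, was listed at 124, 38.9 and 253 TPM in A375 P and at 29.5, 15.0 and 62.6 TPM in S. The log2 difference of TUBB was -1.84 in input, -1.36 in monosomes and -1.79 in polysomes. The pseudogene TUBBP1 holds 10.6% of the 100-base coding windows of TUBB unchanged, and reads from such stretches cannot be told apart. TUBBP1 stood at 101, 11.5 and 219 TPM in P and 7.62, 1.80 and 28.5 TPM in S, or 44.7% of the sum of TUBB and TUBBP1 in P input and 20.5% in S input. With TUBBP1 added, TUBB came to 225 TPM in P input and 37.1 TPM in S input. Tubb5, its mouse counterpart, was the most abundant beta-tubulin of every Yumm1.7 library, at 858, 389 and 1157 TPM in P and 465, 496 and 1028 TPM in S. Its log2 difference was 0.05 in input, 0.56 in monosomes and 1.36 in polysomes, but -0.88, 0.35 and -0.17 on the deposited scale, so in polysomes the sign turns with the scaling.

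TUBB6, a divergent beta-tubulin that is less abundant in most tissues, was lower in S in both lines. Its levels were 182, 37.1 and 272 TPM in A375 P and 61.1, 21.9 and 85.4 TPM in S. In Yumm1.7, Tubb6 stood at 748, 243 and 1046 TPM in P and at 79.5, 88.4 and 86.9 TPM in S. Its polysome TPM was 12-fold lower in S of Yumm1.7, and its share of the summed beta-tubulin was 30.1% in P input and 7.41% in S input. The log2 difference of TUBB6 was -1.36 in A375 input and -1.45 in A375 polysomes, against -2.28 and -2.04 in Yumm1.7. AFG3L2 overlaps TUBB6 on the opposite strand by 15377 bases in the human annotation.

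TUBB3, the beta-tubulin best known from neurons and often expressed in melanoma, was the most abundant beta-tubulin in S input of A375. It stood at 182, 51.1 and 358 TPM in P and 268, 73.1 and 563 TPM in S. Its log2 differences of 0.76 in input, 0.47 in monosomes and 0.86 in polysomes stayed within 2-fold of the median gene. With its own TPM higher and the beta-tubulin sum 2.18-fold lower, TUBB3 made up 12.7% of the summed beta-tubulin in P input and 40.8% in S input, while TUBB4B made up 59.2% and 32.4%. An annotated read-through gene, ENSG00000198211, spans MC1R and TUBB3 on the same strand and shares 14701 bases with TUBB3. MC1R itself was listed at 16.1 TPM in P input and 48.2 TPM in S input of A375. In Yumm1.7, Tubb3 was low throughout, at 4.42, 0.698 and 4.65 TPM in P and 1.12, 9.38 and 6.41 TPM in S, with the states overlapping. Values this low rest on few reads, and the Tubb3 differences moved with the pseudocount.

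TUBB2A and TUBB2B, close copies typical of neurons, were near the median gene in A375 and higher in S in Yumm1.7. TUBB2A stood at 74.6, 11.1 and 152 TPM in A375 P and 59.6, 11.0 and 124 TPM in S. TUBB2B stood at 22.1, 3.90 and 40.4 TPM in A375 P and 26.4, 6.03 and 47.8 TPM in S. None of their A375 log2 differences between the states exceeded 0.48 in size. In Yumm1.7, Tubb2a stood at 38.0, 15.0 and 53.3 TPM in P and 93.4, 73.7 and 184 TPM in S, and its log2 differences were 2.21, 2.44 and 3.30. Tubb2b was at 4.84, 1.33 and 5.91 TPM in P and 7.02, 9.19 and 29.4 TPM in S, with log2 differences of 1.39, 2.34 and 3.67. The input difference of Tubb2b was 0.46 on the deposited scale and thus within 2-fold.

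TUBG1, the main gamma-tubulin gene and the nucleating subunit of the ring complex, was lower in S of A375 in all 3 kinds of library. It stood at 155, 32.7 and 275 TPM in P and 51.6, 16.2 and 77.9 TPM in S, with log2 differences of -1.37, -1.01 and -1.60. In Yumm1.7, Tubg1 stood at 51.2, 13.5 and 89.6 TPM in P and 21.1, 19.6 and 29.8 TPM in S. There its log2 differences were -0.30, 0.71 and -0.02, all within 2-fold of the median gene. On the deposited scale they were -1.24, 0.50 and -1.56, so the reading in input and polysomes depends on the scaling.

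**Figure D2:**
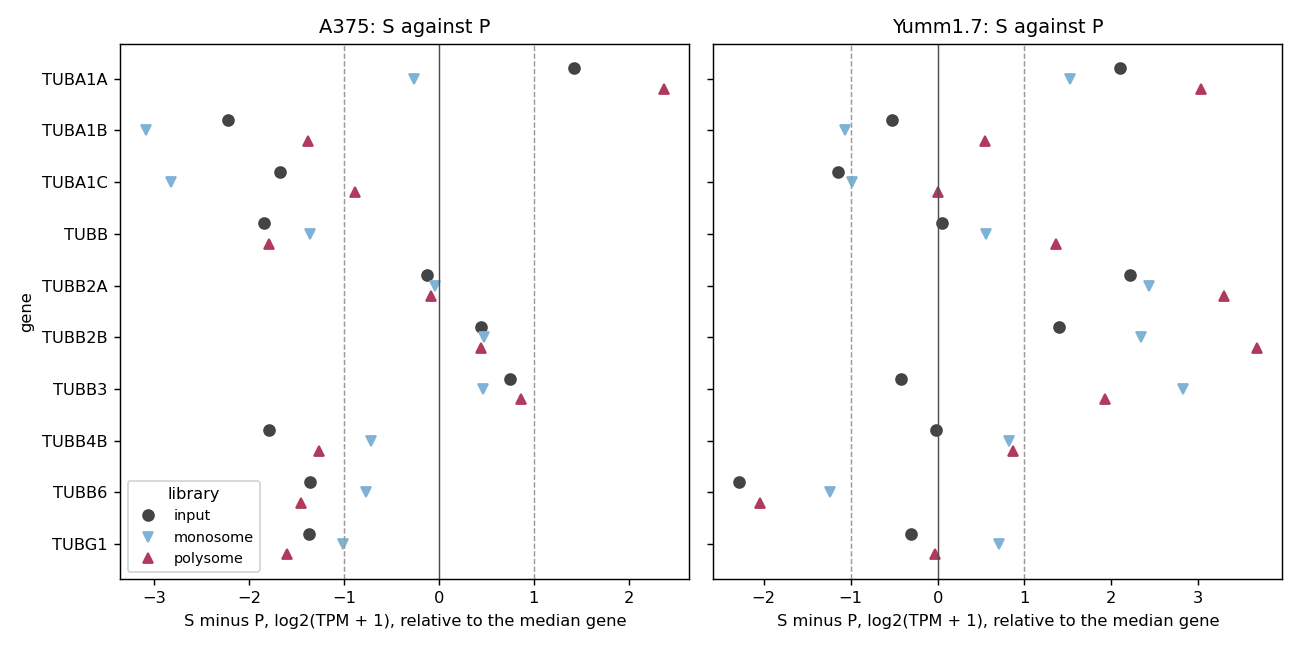
Log2 difference of each tubulin gene between S and P, relative to the median gene (horizontal axis), in input, monosome and polysome libraries of A375 and Yumm1.7. TUBA1A lies to the right in input and polysomes of both lines (1.42 and 2.37 in A375, 2.10 and 3.03 in Yumm1.7), and TUBB6 to the left (-1.36 and -1.45, -2.28 and -2.04).

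Counted together, the tubulin genes leaned lower in S in A375. In input, 6 of 10 were at least 2-fold lower and 1 was higher, against 16.2% and 15.6% of all tested genes. In monosomes 4 were lower and none higher, against 13.2% and 11.7% of all tested genes. In polysomes 5 were lower and 1 higher, against 15.6% and 16.5%. The median log2 difference of the 10 genes was -1.37, -0.74 and -1.07 in the 3 kinds of library. The genes at or beyond 2-fold lower in input were TUBA1B, TUBA1C, TUBB, TUBB4B, TUBB6 and TUBG1.

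Relative to the median gene, Yumm1.7 did not show this lean to lower values, and in monosomes and polysomes the median of the 10 was positive. In input 2 tubulin genes were lower and 3 higher, against 22.3% and 23.1% of all tested genes, and the median of the 10 was -0.16. In monosomes 2 were lower and 4 higher, against 24.0% and 25.4%, with a median of 0.77. In polysomes 1 was lower and 5 were higher, against 22.5% and 24.1%, with a median of 1.12. These splits turned with the scaling: on the deposited scale 5 were lower and 2 higher in input, where 48.1% and 8.94% of all tested genes were, and 3 were lower and 3 higher in polysomes, where 65.1% and 5.28% were. Across both lines, TUBA1A was at least 2-fold higher in S and TUBA1C and TUBB6 at least 2-fold lower in input, and TUBA1A and TUBB6 kept that in polysomes. TUBA1B was the only one of the 10 called in the same direction in monosomes of both lines. The share of all genes called alike in both lines was not worked out, so whether these overlaps are unusual is unknown.

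Summed over genes, tubulin TPM was lower in S of A375 in all 3 kinds of library, and the ratio of alpha- to beta-tubulin differed between the states. The 10 genes summed to 5171, 3851 and 7523 TPM in input, monosomes and polysomes of A375 P and to 1970, 762 and 4981 TPM in S. In Yumm1.7 they summed to 4849, 2696 and 6456 TPM in P and 2917, 2737 and 5001 TPM in S. The input sum was thus 2.62-fold lower in S of A375 and 1.66-fold lower in S of Yumm1.7 in TPM. Since the median gene of Yumm1.7 input was itself at -0.94 on the log2 scale, the Yumm1.7 sum was not lower relative to it.

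The ratio of alpha- to beta-tubulin mRNA, which is taken within a library, was 2.49 in P input and 1.92 in S input of A375. In A375 P it reached 13.8 in monosomes and 1.60 in polysomes, while in S it was 2.74 and 2.27. TUBA1B made up 84.2% of the alpha-tubulin sum of A375 P monosomes, so the limit from TUBA1B-AS1 holds for that ratio too. In Yumm1.7 the ratio was 0.932, 2.16 and 0.945 in input, monosomes and polysomes of P and 1.7, 1.76 and 1.52 in those of S. In both lines the ratio therefore differed more between monosomes and polysomes in P than in S.

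**Figure D3:**
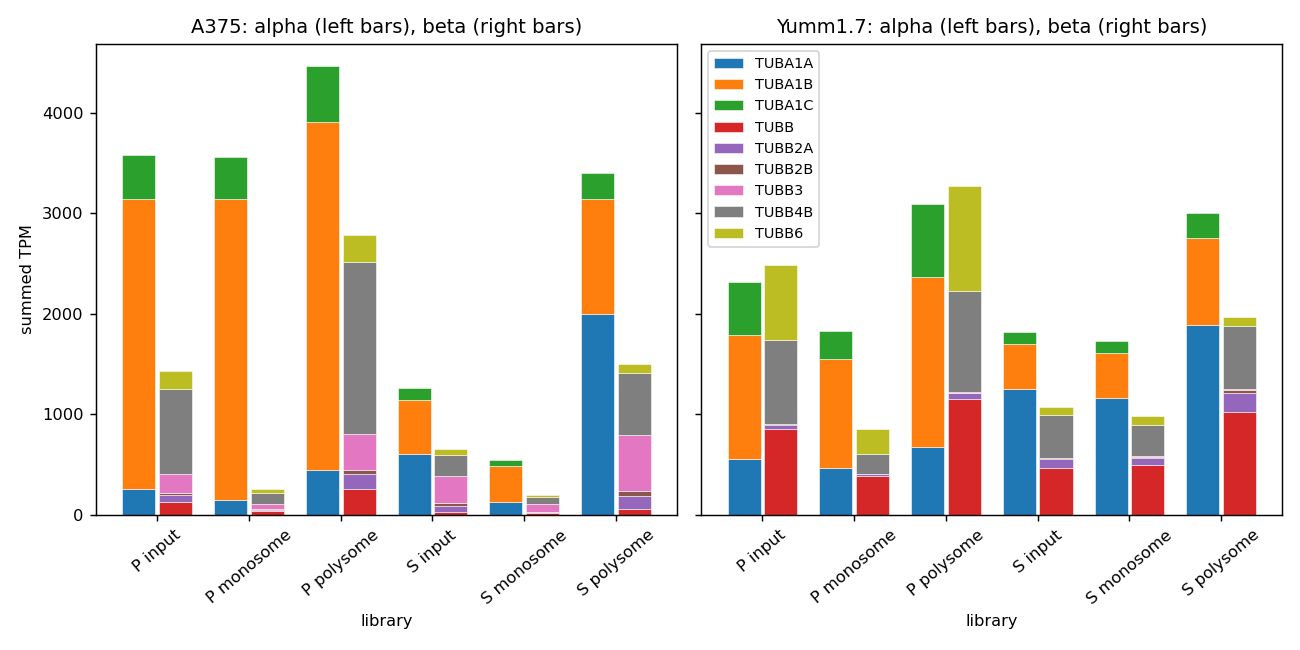
Summed TPM of the 3 alpha-tubulin genes (left bar of each pair) and the 6 beta-tubulin genes (right bar), stacked by gene, in each library. In A375 P monosomes alpha-tubulin summed to 3560 TPM and beta-tubulin to 258 TPM, whereas in A375 S monosomes they summed to 547 and 199 TPM.

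Alpha- and beta-tubulin mRNAs sat differently in the gradient of P cells. In A375 P the polysome-to-monosome ratio of TPM was 3.06 for TUBA1A, 1.16 for TUBA1B and 1.33 for TUBA1C. For the beta-tubulin genes the ratio ran from 6.51 for TUBB to 14.7 for TUBB4B, and it was 8.40 for TUBG1. Relative to the median gene, the log2 polysome-to-monosome difference was -0.84 to 0.56 for the alpha-tubulin genes and 1.62 to 2.82 for the beta-tubulin genes, with no overlap. At 2-fold, 7 of the 10 genes were higher in polysomes and none was lower, against 19.1% and 20.8% of all tested genes, and the 3 genes within 2-fold were TUBA1A, TUBA1B and TUBA1C.

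Yumm1.7 P showed the same order over a narrower range. The log2 polysome-to-monosome difference was -0.39 for Tuba1a, -0.27 for Tuba1b and 0.46 for Tuba1c, and it lay between 0.66 and 1.40 for the beta-tubulin genes. Here 3 of 10 reached 2-fold higher in polysomes (Tubb4b, Tubb6 and Tubg1) and none lower, against 14.0% and 13.4% of all tested genes. On the deposited scale 8 were higher, where 46.2% of all tested genes were.

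In S the alpha- and beta-tubulin families overlapped in both lines. Relative to the median gene the alpha-tubulin genes stood further towards the polysomes than in P, but for Tuba1c of Yumm1.7 the direction turned on the deposited scale (-0.33), and Tuba1a and Tuba1b moved there by 0.18 and 0.29. The TPM ratio of polysomes to monosomes in A375 S was 16.0 for TUBA1A, 3.18 for TUBA1B and 4.36 for TUBA1C, against 3.89 for TUBB6 to 11.3 for TUBB2A among the beta-tubulin genes. The log2 polysome-to-monosome differences of TUBA1A, TUBA1B and TUBA1C were 3.32, 0.998 and 1.44, and 9 of the 10 reached 2-fold higher in polysomes, against 20.8% of all tested genes, with none lower, against 16.7%. The exception, TUBA1B, lay just inside the 2-fold limit. In Yumm1.7 S, 8 of 10 genes reached 2-fold higher in polysomes and none was lower, against 13.2% and 10.9%, and only Tubb3 (-0.02) and Tubb6 (0.44) were within 2-fold. On the deposited scale 5 were higher there, where 6.32% of all tested genes were.

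**Figure D4:**
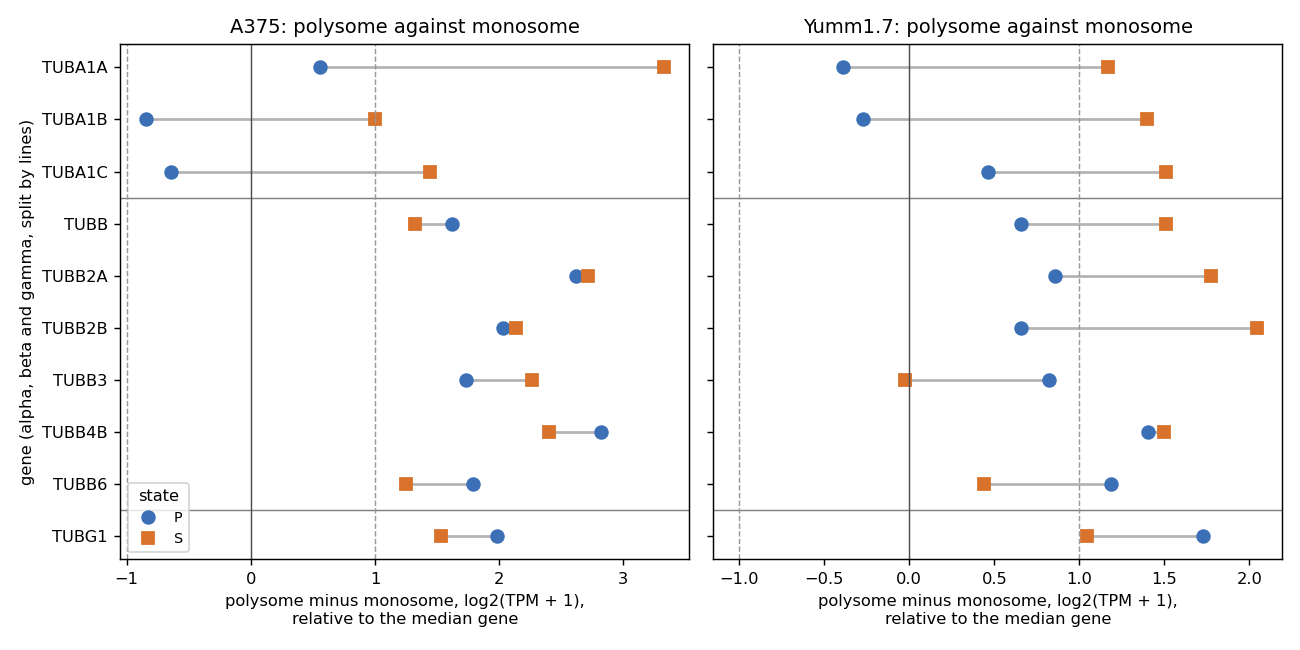
Log2 difference between polysome and monosome libraries, relative to the median gene, for each tubulin gene in P and in S. In P the alpha-tubulin genes (-0.84 to 0.56 in A375) lie left of all beta-tubulin genes (1.62 to 2.82), and in S the families overlap.

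In A375 the alpha-tubulin genes had the largest changes in polysome-to-monosome ratio among the 10 tubulin genes. This ratio difference, S minus P on the log2 scale relative to the median gene, was 2.67 for TUBA1A, 1.75 for TUBA1B and 1.99 for TUBA1C, values above 99.2%, 96.6% and 97.8% of tested genes. For the 6 beta-tubulin genes it lay between -0.63 (TUBB6) and 0.44 (TUBB3), and for TUBG1 it was -0.54. So 3 of 10 genes were higher and none lower, against 13.1% and 7.88% of all tested genes. The antisense gene TUBA1B-AS1 stood at 699 and 695 TPM in monosomes and polysomes of A375 P and at 8.24 and 210 TPM in S. Whether its reads were kept apart from those of TUBA1B is unknown, and their part in the TUBA1B value was not tested. Reading across the libraries, TUBB4B was lower in S in all 3 kinds of library, whereas TUBA1A was higher in input and polysomes but slightly lower in monosomes. On the deposited scale the A375 values were 2.38, 1.46 and 1.7 for TUBA1A, TUBA1B and TUBA1C, so all 3 stayed at least 2-fold higher.

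In Yumm1.7 the ratio difference was 1.60 for Tuba1a, 1.71 for Tuba1b and 1.09 for Tuba1c relative to the median gene, and 1.43 for Tubb2b. Thus 4 of 10 genes were higher and none lower, against 17.3% and 12.6% of all tested genes. This count turns with the scaling, because the median gene itself shifted by -1.42. On the deposited scale Tuba1a was at 0.18, Tuba1b at 0.29 and Tuba1c at -0.33, and 4 of 10 genes were lower and none higher, where 66.5% of all tested genes were lower. Without any scaling, the TPM ratio of polysomes to monosomes was 1.44 in P and 1.63 in S for Tuba1a, and 1.56 and 1.91 for Tuba1b, while it was lower in S for the other 8 genes. Among those 8 it was 2.60 and 2.07 for Tuba1c, 2.98 and 2.07 for Tubb5, 5.00 and 2.06 for Tubb4b, 4.31 and 0.983 for Tubb6 and 6.63 and 1.52 for Tubg1.

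The polysome-to-input ratio moved less in A375. Its S minus P log2 difference was 0.98 for TUBA1A, 0.86 for TUBA1B and 0.82 for TUBA1C, and 0.55 or less for the other genes, so no tubulin gene reached 2-fold, against 2.48% of all tested genes lower and 5.87% higher. In Yumm1.7, 6 of 10 reached 2-fold higher, against 11.3% of all tested genes, and none was lower, against 8.91%. Those 6 were Tuba1b (1.07), Tuba1c (1.15), Tubb5 (1.31), Tubb2a (1.09), Tubb2b (2.27) and Tubb3 (2.34). On the deposited scale 2 of the 10 were higher, Tubb2b (1.68) and Tubb3 (1.75), where 3.40% of all tested genes were. Both were low in input, Tubb2b at 4.84 and 7.02 TPM in P and S and Tubb3 at 4.42 and 1.12 TPM.

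Other tubulin genes of the tables were read in the same way. In A375 the epsilon-tubulin gene TUBE1, a centriole protein, was listed at 12.5 TPM in P input and 2.04 TPM in S input (log2 difference -1.96), TUBB4A at 19.4 and 38.3 TPM (1.14), and TUBA4A at 0.365 and 6.54 TPM (2.66). TUBG2, the second gamma-tubulin gene, stood at 26.8 and 19.3 TPM. In Yumm1.7, Tuba4a stood at 31.9 TPM in P input and 19.9 TPM in S input, and Tube1 at 2.90 TPM in P input and at 0 in S input.

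Other genes that make, modify and use tubulin were grouped by role, and their S minus P log2 differences in input are given beside the 16.2% lower and 15.6% higher among all tested genes of A375 and the 22.3% and 23.1% of Yumm1.7. Of the tubulin folding cofactors and their partners, which assemble the heterodimer, 1 of 9 was lower and none higher in A375, with a median of -0.05, and 2 of 9 were lower and 3 higher in Yumm1.7. TBCE, a cofactor that works on the alpha subunit, was lower in both, at 28.8 and 8.58 TPM in A375 P and S input and at 12.9 and 0.174 TPM in Yumm1.7. ARL2, a small GTPase of this pathway, stood at 147 and 236 TPM in A375 and 57.2 and 224 TPM in Yumm1.7, with log2 differences of 0.87 and 2.89.

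Of the 5 autoregulation genes tested, 1 was higher and none lower in A375, and 1 was higher and 1 lower in Yumm1.7. SCAPER stood at 2.25 TPM in P input and 8.60 TPM in S input of A375, a log2 difference of 1.76. The mouse Ttc5 stood at 10.7 and 1.99 TPM in Yumm1.7, a log2 difference of -1.03. CNOT1, the scaffold of CCR4-NOT, was within 2-fold of the median gene in the input of both lines, at -0.57 in A375 and -0.72 in Yumm1.7. In polysomes CNOT1 was more than 2-fold lower in S, at -1.11 and -1.64, and in monosomes it was at 0.94 and -0.22.

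Among genes of the gamma-tubulin ring complex and its augmin partners, 4 of 14 were lower and none higher in A375, beside TUBG1 itself, and the median was -0.50. TUBGCP3, a core subunit of the ring, was lower in both lines (-1.49 and -2.33), and the augmin subunit HAUS8 stood at 29.8 and 5.13 TPM in A375 P and S input. In Yumm1.7, 3 of 13 were lower and 1 higher. On the deposited scale 12 were lower and none higher, where 48.1% and 8.94% of all tested genes were. CKAP5, a microtubule polymerase, was lower in both lines (-1.53 and -1.44), and MAPRE3, a plus-end protein abundant in neurons, was higher in both, at 10.5 and 44.0 TPM in A375 input and 11.9 and 35.1 TPM in Yumm1.7 input. Within that list of stabilising and plus-end proteins, 1 of 14 was lower and 3 higher in A375, and 1 of 11 was lower and 1 higher in Yumm1.7.

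Genes that destabilise or sever microtubules were lower for 3 of 10 and higher for none in A375, and lower for 4 of 8 and higher for 2 in Yumm1.7. STMN1, which sequesters tubulin dimers, stood at 590 TPM in P input and 103 TPM in S input of A375 (-2.31). KIF2C, a mitotic depolymerase, stood at 98.9 and 6.80 TPM in A375 (-3.48) and at 30.2 and 0.551 TPM in Yumm1.7 (-3.39). Of the tubulin-modifying enzymes, 3 of 14 were lower and 3 higher in A375, and 1 of 16 was lower and 3 higher in Yumm1.7. TTLL1, a glutamylase, was higher in both lines (2.22 and 1.35), and the alpha-tubulin acetyltransferase Atat1 stood at 3.23 and 8.49 TPM in Yumm1.7. Of the 7 actin and intermediate filament genes, 2 were lower and 2 higher in A375, and 1 was lower and 3 higher in Yumm1.7. The lamin gene LMNB1 was lower in both lines (-5.19 and -3.28) and LMNA was higher in both (1.09 and 1.15). ACTB was at 0.89 in A375 and 2.45 in Yumm1.7, and NES at -0.21 and 2.13. On the deposited scale of Yumm1.7, where 48.1% of all tested genes were lower in S input, 4 folding cofactors, 4 autoregulation genes, 4 stabilising, 6 destabilising, 7 modifying and 2 actin and intermediate filament genes were lower. The matching numbers of higher genes were 1, 0, 1, 0, 1 and 2.

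**Figure D5:**
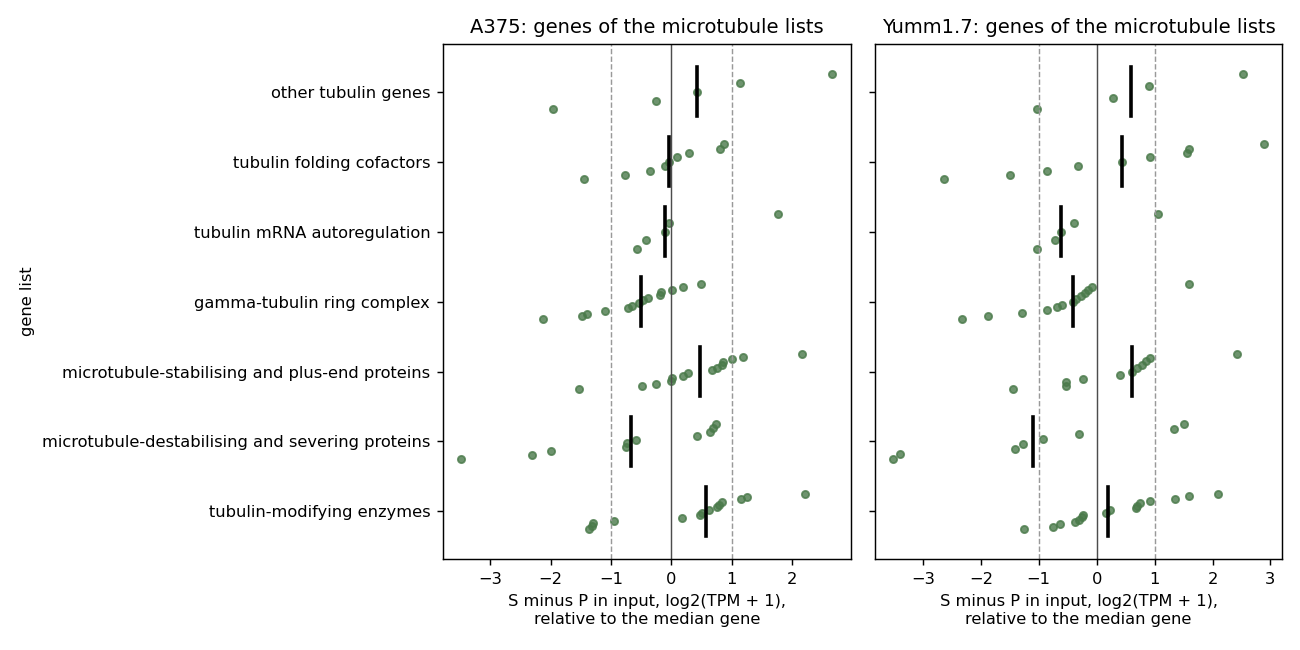
Log2 difference between S and P in input, relative to the median gene, for every tested gene of each microtubule list (1 point per gene, with the list's median). KIF2C lies at -3.48 in A375 and -3.39 in Yumm1.7 among the destabilising proteins, and MAPRE3 at 2.17 and 2.42 among the plus-end proteins.

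Genes whose level followed the summed tubulin TPM most closely were sought by Pearson's r over the 12 libraries, with log2 values centred in each line, among 4381 genes that averaged 10 TPM or more in both lines. The 6 highest were METTL3 (0.97), SNRPA (0.93), DDX28 (0.93), POLR1C (0.92), HAUS7 (0.92) and ORC3 (0.91). METTL3 stood at 48.6, 14.9 and 59.9 TPM in A375 P and 11.0, 1.92 and 27.9 TPM in S. These values describe the libraries only, since the 12 points share states, fractions and library composition.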

How the data were processed

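RNA of 12 polysome profiling libraries was sequenced after poly-T bead selection and random priming, per the labels' protocols. The authors deposited TPM values in 1 table per cell line. Builds were GRCh38 (hg38) and GRCm38 (mm10), per the submitters' processing notes. No aligner, quantifier, strand setting or read depth is stated in the sources used, so counting error is unknown and no interval is given.

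From the deposited TPM, log2(TPM + 1) was taken, and differences between libraries were centred on the median of genes averaging 1 TPM or more in a line. Genes at least 2-fold apart were counted in 7 comparisons per line. Each group had 1 library, so nothing was tested. The members and gene lists were chosen with earlier results of these data known. Named genes were all 10 tubulin genes, up to 4 genes of each list (mean of at least 5 TPM, largest S against P difference in input) and the 6 genes most alike. TUBA4A, TUBE1 in Yumm1.7, and the markers fall partly outside that rule and were picked after their values were seen. Alternatives were no centring, centring on genes of at least 10 TPM, pseudocounts of 0.1 and 5 TPM, no filter, a 5 TPM filter, and pseudogenes added to their parent genes, the last chosen after seeing the data. For the summed levels, the alternatives were also all tubulin genes of the table and a rescaling without mitochondrially encoded genes. Scripts ran in Python 3.11.15 with pandas 2.3.3 and were checked on simulated data. Human sequences came from GENCODE release 29, and mouse sequences were not used here.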

Additional observations from a re-analysis of the deposited data

Results flagged for a closer look

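TUBB differed in direction between the lines in polysomes. Relative to the median gene it was lower in S of A375, at -1.79, and its mouse counterpart Tubb5 was higher in S of Yumm1.7, at 1.36. With 1 library per group the difference between the lines was not tested. On the deposited scale Tubb5 was at -0.17, the same direction as TUBB in A375.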

How the results depend on the processing

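No paired analysis was possible because each group had 1 library. Counts of tubulin genes at least 2-fold apart stayed within 1.5 times under every alternative in all 7 A375 comparisons. In Yumm1.7, the polysome against monosome count was 3 in P and became 8 without centring, 5 with a pseudocount of 0.1 TPM and 5 without a filter, and in S it was 8 and became 5 without centring. The count for the polysome-to-monosome ratio, S against P, was 4 and became 7 with a pseudocount of 0.1 TPM, and without centring it stayed at 4 but from none lower and 4 higher to 4 lower and none higher. The polysome-to-input count was 6 and became 2 without centring and 3 with a pseudocount of 5 TPM. Called values that changed sign without centring were those of Tubb5 in Yumm1.7 polysomes (-0.17) and of Tuba1c in the Yumm1.7 ratio (-0.33). Of the 140 single values of tubulin genes, 68 moved without centring, 5 with a pseudocount of 0.1 TPM and 8 with one of 5 TPM, and none moved under the other alternatives run on them. With a filter at 5 TPM, Tubb3 of Yumm1.7 dropped out and has no value. The summed levels and alpha-to-beta ratios stayed within 1.5 times with all tubulin genes, with pseudogenes added and after rescaling without mitochondrially encoded genes.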
